A study of Arabidopsis thaliana with 8 samples.

Results

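Accessibility was followed at the genes of the GASA family, small secreted cysteine-rich peptides of plants whose first members were found as transcripts induced by gibberellin. The genes were chosen by name, as 10 members of the family (GASA1 to GASA6, GASA9, GASA10, GASA12 and GASA14), and an accessible chromatin region (ACR) belonged to a gene when its summit lay between 1500 bp upstream of the gene start and 500 bp downstream of the gene end. This rule gave 15 of the 30223 ACRs, at 7 of the 10 genes. The family was proposed with results of these data in view. In particular, the lower accessibility of GASA3 at L6 than in DS was already known, so the differences of GASA3, and of its neighbour GASA2, from DS are described here without a test.

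The data are ATAC-seq libraries, in which the Tn5 transposase cuts DNA that is not covered by nucleosomes, from wild-type Arabidopsis thaliana Col-0. There were 2 libraries for each of 4 stages: dry seeds (DS), germinating seeds after 6 h and 26 h in the light (L6 and L26), and seedlings after 57 h in the light (L57). Seeds were stratified in cold water in the dark before they were moved to shaken liquid medium in continuous light. Embryos were freed from the seed coat in germinating seeds, whereas no such step is described for dry seeds or seedlings, so in a comparison with DS or L57 a change of chromatin and a change of tissue cannot be told apart. All values come from mixtures of cells, in which fewer cells with an open region and less opening per cell cannot be told apart either.

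Total counts over all ACRs were 3697787 and 3734831 in DS, 3142490 and 3302541 at L6, 2089834 and 2531844 at L26, then 1534759 and 1853894 at L57. A single GASA ACR held between 12 and 481 counts in a library, with a median of 65.5. Accessibility is given in CPM, the authors' counts scaled in each library by an offset that varies with the abundance of the ACR. It is printed as the value of each library or as mean ± SD of the 2 libraries of a stage. A change is given as log2 fold change ± SE from edgeR, with its p adjusted over all ACRs. The labels do not state that the libraries of a stage came from separate batches of seed, so a p-value sets a change against the spread of these libraries only, and that spread may be technical.

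Gibberellin releases seeds from dormancy and drives the elongation of the embryo. It is bound by GID1 receptors, which then lead DELLA proteins, repressors of the response, to degradation, and GASA genes lie among the targets downstream of the DELLAs. The members differ in role: GASA4 and GASA6 promote germination, GASA6 through elongation of cells in the embryonic axis, GASA5 delays flowering, GASA14 acts in leaf expansion, and transcripts of GASA2 and GASA3 are known from siliques and dry seeds.

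GASA2 (AT4G09610) and GASA3 (AT4G09600) lie side by side on chromosome 4, in the same orientation with 1123 bases between them, and the ACR upstream of each was highest in DS. Their 300 bases around the summits are shown because these regions resemble each other; they were read from the RefSeq genome TAIR10.1 on the minus strand, and capitals mark runs of at least 6 bases that are identical in a local alignment of the pair. The GASA3 stretch covers 24 to 323 bp upstream of its gene start (chr4:6073670-6073969), and the GASA2 stretch 297 to 596 bp upstream (chr4:6075942-6076241).
GASA3 upstream ACR: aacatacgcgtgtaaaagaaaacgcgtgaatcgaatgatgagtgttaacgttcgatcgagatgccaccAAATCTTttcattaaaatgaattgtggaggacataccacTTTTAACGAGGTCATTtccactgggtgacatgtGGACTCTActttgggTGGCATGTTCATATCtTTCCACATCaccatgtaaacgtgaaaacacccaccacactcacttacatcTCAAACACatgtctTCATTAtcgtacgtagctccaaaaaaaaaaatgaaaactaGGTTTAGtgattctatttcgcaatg
GASA2 upstream ACR: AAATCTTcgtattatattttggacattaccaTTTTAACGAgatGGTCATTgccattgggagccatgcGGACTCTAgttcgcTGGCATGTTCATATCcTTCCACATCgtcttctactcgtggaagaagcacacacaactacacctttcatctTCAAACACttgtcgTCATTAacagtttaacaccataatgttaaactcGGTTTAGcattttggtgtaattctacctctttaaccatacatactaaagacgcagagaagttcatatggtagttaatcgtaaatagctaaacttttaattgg

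The alignment paired 195 bases, of which 159 (81.5%) were identical, and bases opposite a gap were left out. It held 9 runs of at least 6 identical bases, the longest of 15. The runs TTTTAACGA and GGTCATT stand side by side in GASA3 and are parted by the bases gat in GASA2. The longest stretch shared by the whole ACRs was also 15 bases, shorter than the reads of 50 bases, so reads could be placed in one or the other. None of the 8 motifs searched (spelled out below) lies in either stretch.

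The region upstream of GASA6 (AT1G74670) had the highest mean CPM of the 15 ACRs, and its central 300 bases (chr1:28052269-28052568, plus strand, 462 to 761 bp upstream of the gene start) hold matches to 4 motifs, which are in capitals.
GASA6 upstream ACR: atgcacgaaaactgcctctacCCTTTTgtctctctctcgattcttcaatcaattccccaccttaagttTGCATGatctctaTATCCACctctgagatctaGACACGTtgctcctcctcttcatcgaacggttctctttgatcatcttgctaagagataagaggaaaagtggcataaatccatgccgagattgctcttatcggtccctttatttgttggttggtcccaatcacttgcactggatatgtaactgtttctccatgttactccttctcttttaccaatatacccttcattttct

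In the order shown, the capitals are a pyrimidine box (CCTTTT), an RY repeat core (CATGCA, here on the minus strand as TGCATG), a gibberellin box (TATCCAC) and an abscisic acid response element (ABRE, GACACGT, on the minus strand). Pyrimidine and gibberellin boxes are known from cereal genes switched on by gibberellin, while RY repeats and ABREs are known from seed maturation genes. A match is a run of letters and does not show that a factor binds there.

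Over the 15 ACRs, 10 differed between the 4 stages, against a background of 56.6% of all ACRs, and GASA2 and GASA3, described without a test against DS, are among the 10. The largest ratio between stage means had a median of 2.01 over the GASA ACRs and of 1.68 over all ACRs, and it reached 2 at 8 of the 15, the same pair included, and at 29.1% of all. Mean CPM was highest in DS at 4 GASA ACRs (29.1% of all ACRs), at L6 in 0 (24.7%), at L26 in 6 (20.7%) and at L57 in 5 (25.5%). A region open at 1 stage alone entered the peak set through that stage, since peaks had to be found in both libraries. The libraries of 2 stages did not overlap at 67.9% of all ACRs for L6 against DS and at 54.4% for L26 against L6. This share was 54.5% for L57 against L26 and 63.6% for L57 against DS. A lack of overlap, given below for single ACRs, was thus the usual case.

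**Figure D1:**
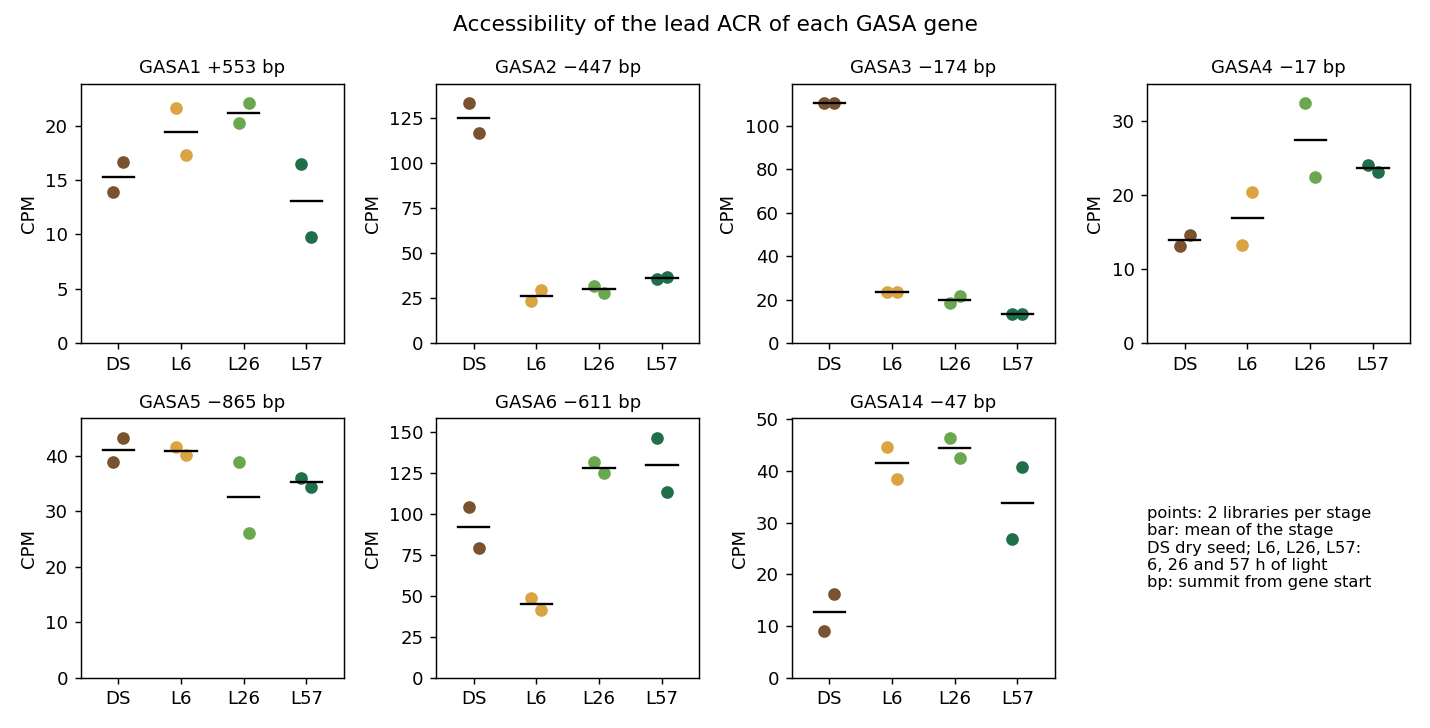
CPM (y axis) of the lead ACR of each gene in the 2 libraries of each stage (points) with the stage mean (bar); the title gives the distance of the summit from the gene start. GASA2 and GASA3 stood at 111 to 133 CPM in DS and at 36.6 CPM or less in all later libraries, GASA6 was lowest at L6, and GASA14 was lowest in DS.

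The lead ACR of a gene is its promoter ACR (400 bp upstream to 100 bp downstream of a transcript start) with the highest mean CPM, or its ACR with the highest mean CPM where it has none in the promoter. Promoter leads were found at GASA3, GASA4 and GASA14. The 15 ACRs comprised 3 in promoters, 5 further upstream, 6 in gene bodies and 1 downstream.

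The promoter ACR of GASA3 (chr4:6073446-6074066, summit 174 bp upstream of the gene start, intergenic) had 111 and 111 CPM in DS, 23.3 and 23.5 at L6, 18.3 and 21.7 at L26, then 13.3 and 13.2 at L57. Most of the difference lay between DS and L6, and both L57 libraries were below all others. The log2 fold change was -2.24 ± 0.17 for L6 against DS and -3.06 ± 0.22 for L57 against DS. The ACR was number 15 and number 11 of 30223 counted from the largest fall. These ranks describe a gene chosen with its fall at L6 known, and are not evidence for it. After L6 no change passed the test, with -0.22 ± 0.25 for L26 against L6 (adjusted p = 0.615) and -0.60 ± 0.32 for L57 against L26 (adjusted p = 0.209).

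The ACR upstream of GASA2 (chr4:6075909-6076790, summit 447 bp upstream, intergenic) had 133 and 117 CPM in DS, 23.2 and 29.3 at L6, 31.9 and 27.8 at L26, then 35.5 and 36.6 at L57. It was number 14 of all ACRs counted from the largest fall for L6 against DS, with -2.25 ± 0.16, next to GASA3 and likewise a description. In contrast to GASA3, its level at L57 was not below that at L6, and L57 against DS gave -1.79 ± 0.18. The changes after L6 did not pass the test, with 0.17 ± 0.22 for L26 against L6 (adjusted p = 0.653) and 0.28 ± 0.23 for L57 against L26 (adjusted p = 0.456).

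Within each library the CPM of the GASA2 ACR was 1.20 and 1.05 times that of the GASA3 ACR in DS, 1.00 and 1.24 times at L6, 1.74 and 1.28 times at L26, and 2.66 and 2.78 times at L57. In CPM per ACR the pair thus stood at like levels in DS and L6, and both L57 libraries had a higher ratio than the 6 others. The GASA3 ACR held only 21 and 25 counts at L57. Per kb, GASA3 was above GASA2 in both libraries of DS (178 against 142 CPM per kb) and of L6 (37.7 against 29.7). The summits lie 2272 bp apart, and each ACR is the nearest neighbour of the other on that side. The next ACR downstream of GASA3, 7067 bp past the gene end, had 23.3 and 25.7 CPM in DS and 8.86 to 15.6 CPM in the later libraries, while the next one upstream of GASA2, at 3534 bp, had 22.8 to 36.0 CPM in all 8.

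GASA6 showed another course. Its lead ACR (chr1:28051745-28052828, summit 611 bp upstream, intergenic, 1084 bp wide) had 104 and 79.5 CPM in DS, 48.5 and 41.1 at L6, 132 and 125 at L26, then 147 and 114 at L57. On this scale both L6 libraries lay below all others, and those of L26 and L57 above both of DS. It fell by 1.04 ± 0.14 on the log2 scale at L6 against DS (adjusted p = 1.2e-10) and rose by 1.52 ± 0.14 at L26 against L6 (adjusted p = 4.69e-18), with 0.01 ± 0.14 for L57 against L26 (adjusted p = 0.979). Of all ACRs, 141 had a larger log2 fold change for L26 against L6.

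At L57 the GASA6 lead ACR had 130.1 ± 23.4 CPM, against 91.9 ± 17.6 CPM in DS, a change of 0.49 ± 0.14 (adjusted p = 0.00282). This call was lost with TMM factors (0.14, adjusted p = 0.487), total counts (0.24, adjusted p = 0.183), GC-corrected offsets (0.32, adjusted p = 0.0575), DESeq2 (0.17, adjusted p = 0.601), without the second DS library (0.30, adjusted p = 0.175) and without the first L57 library (0.31, adjusted p = 0.209). The second ACR of GASA6 (chr1:28053087-28053435, summit in the 5′ UTR, 249 bp downstream of the gene start) had 13.3 and 6.44 CPM in DS, 20.3 and 11.6 at L6, 22.2 and 16.7 at L26, then 18.2 and 21.4 at L57. It did not follow the upstream ACR through L6, where 1 library was above and 1 below the higher DS library. It rose by 1.01 ± 0.31 at L57 against DS (adjusted p = 0.00768), a call lost without the second DS library (0.58, adjusted p = 0.245) or the second L57 library (0.88, adjusted p = 0.154).

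**Figure D2:**
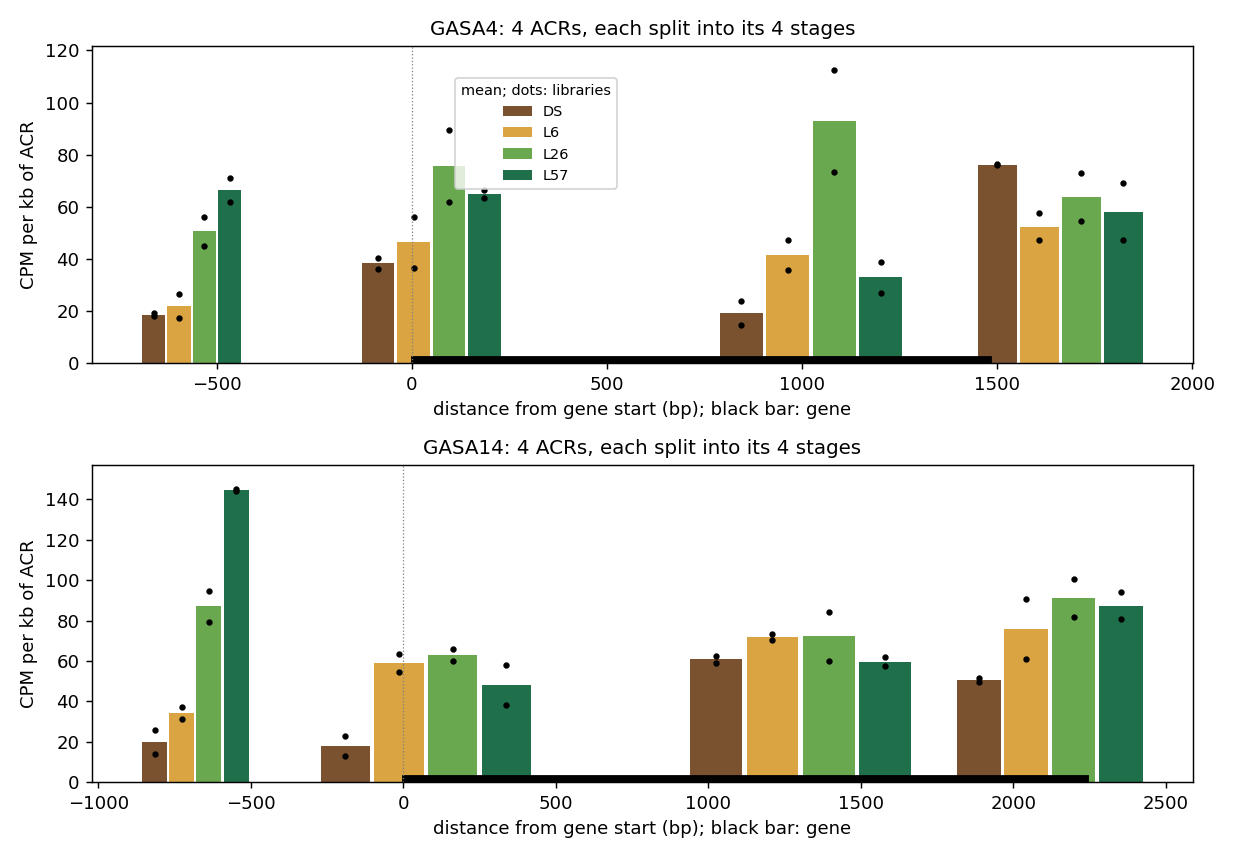
Accessibility per kb of ACR (y axis, CPM per kb) along GASA4 and GASA14 by distance from the gene start in bp; each ACR's width is split into 4 bars, the means of DS, L6, L26 and L57, with dots for the 2 libraries, and the black bar is the gene. The ACRs of 1 gene took different courses: the ones furthest upstream were highest at L57, and the one in the last part of the GASA4 gene was highest at L26.

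GASA4 (AT5G15230) and GASA14 (AT5G14920) had 4 ACRs each. At GASA4 the promoter ACR (chr5:4944684-4945047, summit 17 bp upstream) had 13.2 and 14.7 CPM in DS, 13.3 and 20.4 at L6, 32.5 and 22.5 at L26, then 24.1 and 23.1 at L57. Both libraries of L26 and of L57 lay above those of DS and L6. The change was 0.67 ± 0.26 for L26 against L6 (adjusted p = 0.0637), which passed with TMM factors (0.77, adjusted p = 0.0244), with total counts (0.86, adjusted p = 0.0108), without the second L6 library (1.02, adjusted p = 0.0391) and without the second L26 library (0.93, adjusted p = 0.0379). At L57 it rose by 0.76 ± 0.28 against DS (adjusted p = 0.0316), a call lost after GC correction of the offsets (adjusted p = 0.0856), with DESeq2 (adjusted p = 0.0638) and without any 1 of the 4 libraries compared (adjusted p = 0.0642 to 0.138).

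Further upstream, 499 bp before GASA4, an ACR of 260 bp (chr5:4944122-4944381) lies in the long non-coding RNA gene AT5G02345. It had 5.01 and 4.67 CPM in DS, 4.52 and 6.90 at L6, 11.7 and 14.6 at L26, then 16.1 and 18.5 at L57. DS and L6 overlapped, and each later stage lay above them. It rose by 1.20 ± 0.35 at L26 against L6 (adjusted p = 0.00815), a call lost without the first L6 library (0.94, adjusted p = 0.135), without the second L26 library (1.01, adjusted p = 0.15) and with DESeq2 (1.34, adjusted p = 0.0562), and by 1.83 ± 0.33 at L57 against DS (adjusted p = 2.05e-06).

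The ACR over the coding exons of GASA4 (chr5:4945600-4946077, summit 1104 bp downstream of the gene start) peaked at L26. It had 6.91 and 11.4 CPM in DS, 17.1 and 22.6 at L6, 53.8 and 35.0 at L26, then 18.6 and 12.9 at L57, and both L26 libraries lay above all others. It rose by 1.13 ± 0.23 at L26 against L6 (adjusted p = 7.48e-05) and fell by 1.49 ± 0.27 at L57 against L26 (adjusted p = 2.26e-05), the 129th largest fall of all ACRs in that comparison. It also rose by 1.11 ± 0.29 at L6 against DS (adjusted p = 0.00162), which was lost without the first DS library (0.80, adjusted p = 0.0839) or the second L6 library (0.89, adjusted p = 0.0787). The promoter ACR of the same gene gave -0.20 ± 0.27 for L57 against L26 (adjusted p = 0.678), and the difference between these ACRs was not tested.

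The last ACR of GASA4, with its summit 1624 bp downstream of the gene start and past the gene end, ranged from 20.3 to 32.9 CPM and did not pass the test over the stages (adjusted p = 0.132). Its fall of 0.53 ± 0.22 at L6 against DS was near the threshold (adjusted p = 0.0455) and was lost with the earlier form of the test (adjusted p = 0.0648), with DESeq2 (adjusted p = 0.226) and without any 1 of the 4 libraries (adjusted p = 0.0672 to 0.292). It was the member nearest the downstream edge of the rule. Just outside, the next ACR 786 bp past the gene end had 50.8 and 51.1 CPM in DS and 8.07 to 17.0 CPM later, and the next one upstream, 1872 bp before the gene start, had 17.5 to 21.2 CPM in DS and at L6 and 46.4 to 64.3 CPM at L26 and L57.

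At GASA14 the promoter ACR (chr5:4825863-4826566, summit 47 bp upstream) had 9.02 and 16.2 CPM in DS, 44.6 and 38.5 at L6, 46.4 and 42.4 at L26, then 26.9 and 40.7 at L57. Both DS libraries lay below all 6 others. It rose by 1.71 ± 0.23 at L6 against DS (adjusted p = 1.77e-10) and by 1.43 ± 0.27 at L57 against DS (adjusted p = 4.02e-06), and both calls held under every alternative run. No change passed between L26 and L6 (0.09 ± 0.20, adjusted p = 0.809) or between L57 and L26 (-0.37 ± 0.23, adjusted p = 0.288).

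The ACR 665 bp upstream of GASA14 (chr5:4825281-4825637) lies in the 3′ UTR of the neighbouring gene AT5G14910. It had 9.21 and 4.93 CPM in DS, 13.2 and 11.1 at L6, 28.4 and 33.7 at L26, then 51.5 and 51.8 at L57, and no stage overlapped another. It rose by 2.86 ± 0.27 at L57 against DS (adjusted p = 1.39e-18), the fifth largest rise of all ACRs, and by 1.36 ± 0.27 at L26 against L6 (adjusted p = 4.1e-05). The rise of 0.72 ± 0.22 at L57 against L26 (adjusted p = 0.0161) was lost with DESeq2 (0.75, adjusted p = 0.0989) and without the first L26 (0.61, adjusted p = 0.118), the first L57 (0.73, adjusted p = 0.0836) or the second L57 library (0.72, adjusted p = 0.1). At L6 against DS it gave 0.78 ± 0.34 (adjusted p = 0.0691).

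The ACRs inside GASA14 varied less. The one over the coding exons (summit 1494 bp downstream of the gene start) ranged from 42.5 to 62.4 CPM and did not pass the test over the stages (adjusted p = 0.349). The one in its 3′ UTR (chr5:4827950-4828571, summit at 2044 bp), which is also a promoter ACR of AT5G14930, had 30.8 and 32.0 CPM in DS and 38.0 to 62.4 CPM later. It rose by 0.78 ± 0.20 at L57 against DS (adjusted p = 0.00106). Its rise of 0.58 ± 0.18 at L6 against DS (adjusted p = 0.00782) was lost after GC correction of the offsets (0.28, adjusted p = 0.263), without the first DS library (0.56, adjusted p = 0.0615) and without the first L6 library (0.27, adjusted p = 0.42).

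At GASA1 and GASA5 no difference over the stages passed the test. The only ACR of GASA1 (AT1G75750, chr1:28441598-28442034, over its coding exons, summit 553 bp downstream of the gene start) had 13.9 and 16.7 CPM in DS, 21.7 and 17.3 at L6, 20.3 and 22.1 at L26, then 16.5 and 9.73 at L57 (adjusted p = 0.12 over the 4 stages). For L57 against L26 the change was -0.72 ± 0.32, with an interval of -1.36 to -0.09 before adjustment and an adjusted p of 0.117. The lead ACR of GASA5 (AT3G02885, chr3:639538-640389, summit 865 bp upstream, in the promoter of the neighbour AT3G02890) had 38.9 and 43.3 CPM in DS, 41.5 and 40.1 at L6, 38.9 and 26.13 at L26, then 36.1 and 34.3 at L57 (adjusted p = 0.283 over the 4 stages).

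For the GASA5 lead ACR the 95% interval of the log2 fold change, taken as the estimate ± its SE times the normal quantile, ran from -0.36 to 0.34 for L6 against DS and from -0.64 to 0.19 for L57 against DS. With GC-corrected offsets L6 against DS passed the test as a fall (-0.46, adjusted p = 0.0451). The second ACR of GASA5, in its 3′ UTR, ranged from 18.1 to 33.8 CPM (adjusted p = 0.0952 over the 4 stages).

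**Figure D3:**
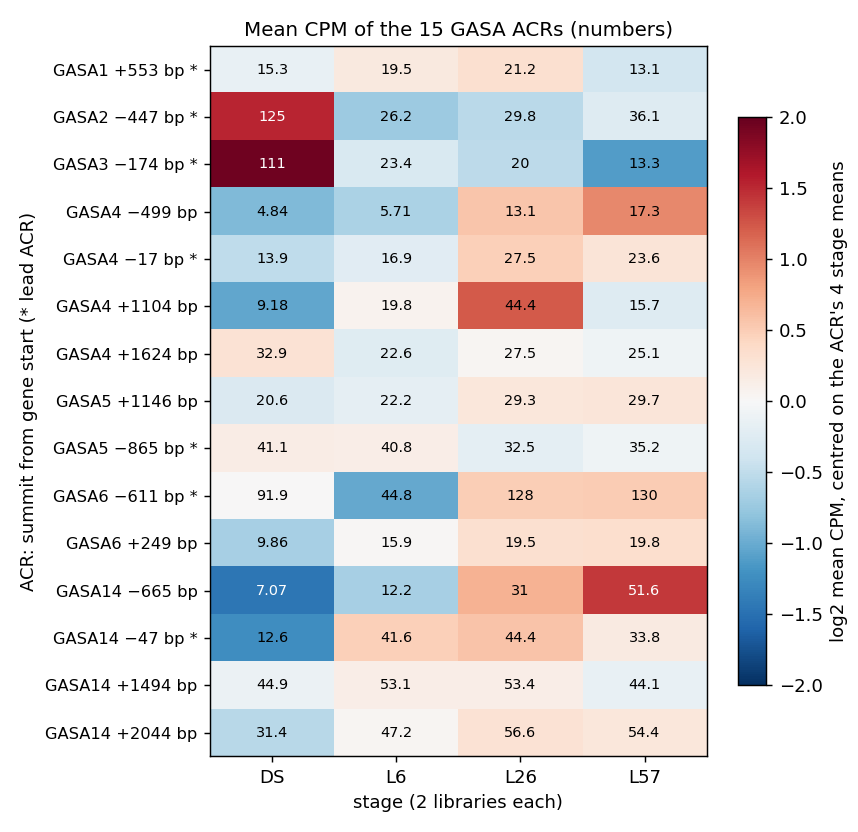
Mean CPM (numbers) of the 15 GASA ACRs, 1 per line, at the 4 stages; colour gives log2 mean CPM centred on the 4 stage means of that ACR, and asterisks mark lead ACRs. GASA2 and GASA3 had their highest means in DS (125 and 111 CPM), whereas the 4 upstream and promoter ACRs of GASA4 and GASA14 had their lowest there (4.84 to 13.9 CPM).

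No ACR lay in the window of the other 3 genes, AT1G22690, AT5G59845 and AT2G30810, listed as GASA9, GASA10 and GASA12. By comparison, 77.1% of 27444 protein-coding genes had at least 1 ACR in a window made the same way. To these 3 genes the annotation gives the product name of the family but no symbol, and it gives no symbol to GASA14 (AT5G14920) either. The nearest ACRs lay 4870 bp upstream and 3791 bp downstream of AT1G22690, 1890 bp upstream and 1636 bp downstream of AT5G59845, and 3694 bp upstream and 881 bp downstream of AT2G30810. An opening too weak to be called in both libraries of a stage would not show here.

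Per kb of ACR, which adjusts for the width of an ACR only, the order of the lead ACRs differed in part between DS and L57. By mean, GASA5 and GASA1 kept places 4 and 6, and the moves of GASA2 and GASA3 from DS are a description. In DS GASA3 (178 CPM per kb) was followed by GASA2 (142), GASA6 (84.8), GASA5 (48.2), GASA4 (38.2), GASA1 (35.0) and GASA14 (17.9), and the only neighbours in this order whose libraries overlapped were GASA4 and GASA1. At L6 the order ran from GASA14 (59.1 CPM per kb) to GASA2 (29.7), and GASA5, GASA4, GASA1 and GASA6 between them overlapped from each to the next. At L26 GASA6 led with 118 CPM per kb, above both libraries of GASA4 (75.6), and the last 3 in the order, GASA5, GASA2 and GASA3 (38.2 to 32.2), overlapped from each to the next. At L57 GASA6 (120.0 CPM per kb) again led and GASA3 (21.4) was last, below both libraries of its neighbour in the order, GASA1. GASA14, GASA5 and GASA2 (48.0 to 40.9) overlapped there from each to the next, so the place of GASA5 among them was not resolved.

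**Figure D4:**
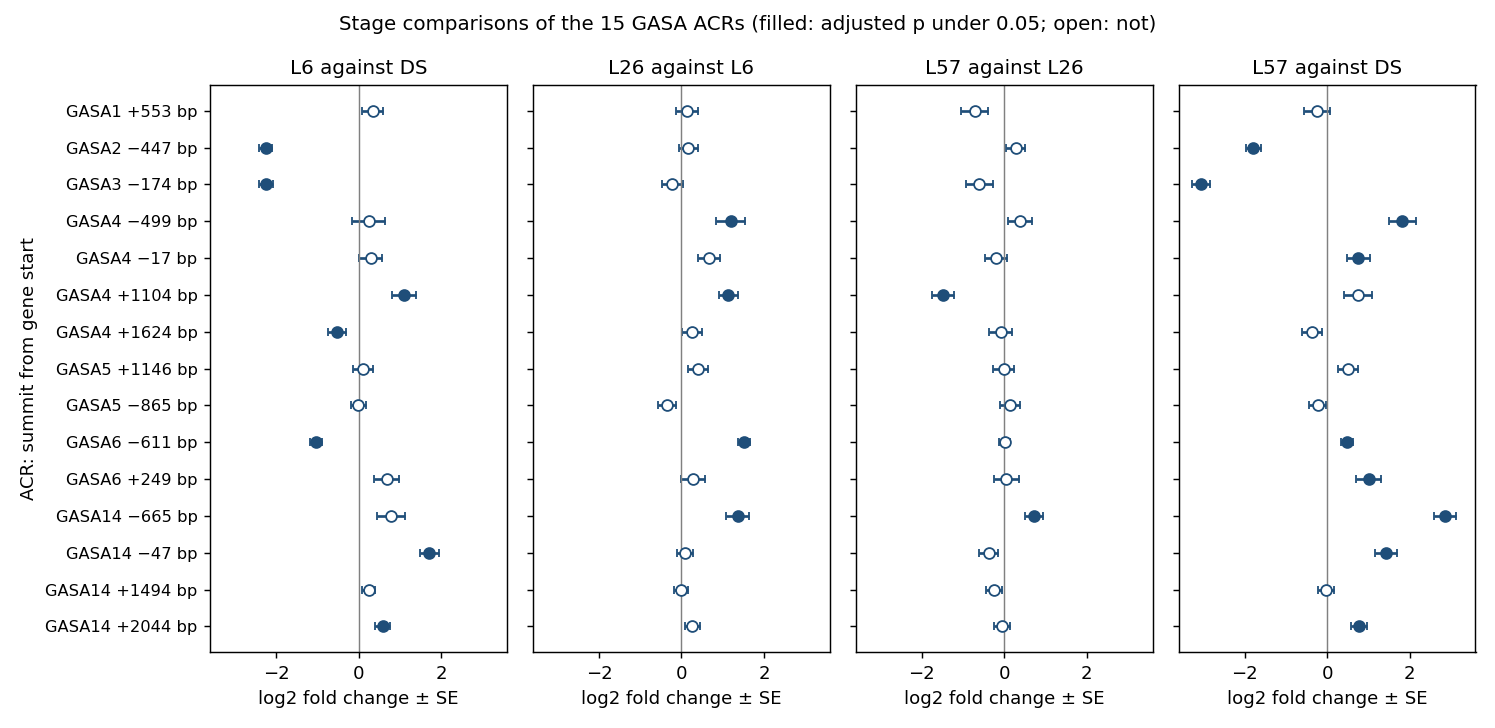
Log2 fold change ± SE (x axis) of the 15 GASA ACRs in the 4 stage comparisons; filled points passed an adjusted p of 0.05 over all 30223 ACRs and open points did not. Rises and falls occurred side by side at L6 against DS, and at L57 against DS 7 ACRs were called as higher with edgeR. The points of GASA2 and GASA3 against DS are a description, not a test.

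The comparison of L6 with DS, which asks what differs between the dry seed and the seed that has been stratified and lit for 6 h, called 3 GASA ACRs as higher, against 17.6% of all ACRs, and 4 as lower, against 14.3%. The higher ones were the promoter ACR of GASA14, its 3′ UTR ACR and the coding exon ACR of GASA4, and the lower ones were GASA2, GASA3, the upstream ACR of GASA6 and the downstream ACR of GASA4. The median log2 fold change was 0.25 over the 15 GASA ACRs and -0.01 over all, and the median of its size was 0.58 over the 15 and 0.37 over all. The known fall of GASA3 and that of its neighbour are among these counts, so nothing is read from them.

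For L26 against L6, both from embryos freed from the seed coat, 4 GASA ACRs were higher (background 8.71%): the upstream ACRs of GASA4, GASA6 and GASA14 and the coding exon ACR of GASA4. None was lower with edgeR (background 7.91%), at an unadjusted p under 0.05 there were also 0, and DESeq2 called 0. The median log2 fold change was 0.26 over the GASA ACRs and -0.01 over all.

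For L57 against L26, 1 GASA ACR was higher (background 7.53%), the one 665 bp upstream of GASA14, and 1 was lower (background 6.19%), the coding exon ACR of GASA4. These shares are near the background. For L57 against DS, 7 were higher (background 17.0%). This count was 6 with TMM factors, 8 with total counts, and 5 with GC-corrected offsets and with DESeq2. The 2 counted as lower (background 12.2%) were GASA2 and GASA3, whose differences from DS are descriptions, so nothing is read from that count. The 7 were the promoter and upstream ACRs of GASA4 and of GASA14, both ACRs of GASA6 and the 3′ UTR ACR of GASA14. The median log2 fold change of L57 against DS was 0.51 over the GASA ACRs and -0.01 over all. The comparisons share libraries of a stage, so their chance deviations are shared too.

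The GASA ACRs had a median width of 607 bp and a median GC content of 33.9%, against 522 bp and 39.1% over all ACRs. Of 8 motifs searched on both strands within 250 bp of the summit, the gibberellin response element GARE (TAACAAA) was found in 5 of the 15 and in 18.8% of all ACRs, the pyrimidine box (CCTTTT) in 5 and in 37.7%, and the gibberellin box (TATCCAC) in 2, those upstream of GASA6 and GASA14, and in 6.49%. The G-box (CACGTG) was found in 2 (14.2% of all ACRs), the ABRE (ACGTGNC) in 2 (17.7%), the RY repeat core (CATGCA) in 2 (18.7%), the site II motif (GGCCCA) in 2 (22.4%) and the telo box (AAACCCTA) in 1 (8.05%). G-box and ABRE can share bases, as they did over the coding exons of GASA14. The GASA2 ACR held 1 GARE, 634 bp upstream of the gene start, and that of GASA3 held none of the 8.

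Among 4327 promoter ACRs of other protein-coding genes with a symbol, those closest to GASA3 over the 8 libraries, by root mean square distance of log2(CPM + 1) centred on each ACR's mean, were at OLEO2 (AT5G40420, distance 0.315), ATECP31 (AT3G22500, 0.357), GLN1;5 (AT1G48470, 0.36) and LEA (AT2G21490, 0.36). The OLEO2 ACR had 72.4 ± 0.709 CPM in DS, 25.3 ± 0.886 at L6, 14.8 ± 2.31 at L26 and 13.8 ± 2.28 at L57. Closest to the promoter ACR of GASA14 were those at GRF2 (AT1G78300, 0.16), HFR1 (AT1G02340, 0.225), LHCB4.1 (AT5G01530, 0.244) and HTH (AT1G72970, 0.25). The HFR1 ACR had 8.68 ± 0.479 CPM in DS, 28.0 ± 1.86 at L6, 34.5 ± 2.15 at L26 and 25.5 ± 2.82 at L57.

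Other genes of the family and of the gibberellin pathway were taken from lists and counted through their promoter ACR. None of 5 further GASA genes had a promoter ACR, and 2 had an ACR in the wider window. The one at AT2G18420 (440 bp downstream of the gene start) had 17.9 and 16.4 CPM in DS, 7.16 and 8.28 at L6, 4.86 and 7.12 at L26, then 10.9 and 4.50 at L57. It fell by 1.14 ± 0.29 at L6 against DS (adjusted p = 0.000991) and fell by 1.19 ± 0.33 at L57 against DS (adjusted p = 0.00272). The one 729 bp upstream of AT3G10185 ranged from 22.0 to 36.2 CPM (adjusted p = 0.119 over the 4 stages).

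Of 10 gibberellin synthesis genes 4 had a promoter ACR. GA20OX3 (AT5G07200), which encodes an oxidase late in the pathway, had 26.8 ± 2.22 CPM at L6, against 12.2 ± 5.02 CPM in DS, a rise of 1.14 ± 0.25 (adjusted p = 0.000131) that DESeq2 did not call (adjusted p = 0.0807). It was the only one of the 4 called between L6 and DS (of all ACRs, 17.6% were higher and 14.3% lower). At L26 it was lower than at L6 (-1.07 ± 0.28, adjusted p = 0.00253), which DESeq2 did not call (adjusted p = 0.157). At L57 2 of the 4, GA20OX3 and GA3, were lower than in DS (adjusted p = 0.0198 and 0.0188), against 12.2% of all ACRs. Both calls were lost with DESeq2 (adjusted p = 0.121 and 0.19) and without the second L57 library (log2 fold change -0.51 and -0.68). The GA20OX3 call was also lost without the second DS library (-0.7). The GA3 call was lost without the first DS library (-0.79) or with total counts (adjusted p = 0.0691). Of 7 genes for gibberellin inactivation only GA2OX6 (AT1G02400) had a promoter ACR, with 6.75 ± 2.13 CPM at L6, against 24.4 ± 2.18 CPM in DS, a fall of 1.83 ± 0.28 (adjusted p = 2.77e-08).

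Of 15 genes for perception and signaling 8 had a promoter ACR, and 3 were higher (17.6% of all ACRs) at L6 than in DS. The DELLA gene RGA1 (AT2G01570) had 19.4 ± 1.99 CPM at L6, against 3.64 ± 0.0494 CPM in DS, and the DELLA gene RGL3 (AT5G17490) had 121 ± 0.164 CPM at L6, against 69.3 ± 3.72 CPM in DS. Both were lower again at L26 than at L6, with -1.20 ± 0.29 (adjusted p = 0.00128; not called by DESeq2, adjusted p = 0.164) and -0.74 ± 0.14 (adjusted p = 7.82e-06). The receptor gene GID1A (AT3G05120) had 25.4 ± 2.64 CPM at L57, against 67.0 ± 2.60 CPM in DS, a fall of 1.41 ± 0.21 (adjusted p = 7.37e-09). MYB33 (AT5G06100), a transcription factor of the gibberellin response, was also called as higher at L6 than in DS (0.52 ± 0.21, adjusted p = 0.045), a call that turned to -0.10 with GC-corrected offsets (adjusted p = 0.774). It was also lost with total counts (adjusted p = 0.0735), with the earlier form of the test (adjusted p = 0.0639), with DESeq2 (adjusted p = 0.156) and without any 1 of the 4 libraries (adjusted p = 0.0956 to 0.214). In all, 3 of the 8 were lower at L26 than at L6 (7.91% of all ACRs), RGA1, RGL3 and GID1A, the last lost with DESeq2 (adjusted p = 0.0956), without the first L6 library (adjusted p = 0.545) or without the second L26 library (adjusted p = 0.341). RGL3 was the only one of the 8 lower at L57 than at L26 (6.19% of all ACRs). RGL3 and GID1A were lower at L57 than in DS (12.2% of all ACRs).

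A list of growth genes that respond to gibberellin holds GASA1, GASA4 and GASA6 themselves, and 4 of its 10 genes had a promoter ACR, GASA4 among them. XTH9 (AT4G03210), which encodes an enzyme that remodels xyloglucan in cell walls, had 260.5 ± 6.57 CPM at L57, against 43.0 ± 1.05 CPM in DS, and the expansin gene EXPA6 (AT2G28950) had 138 ± 7.37 CPM at L57, against 54.4 ± 5.24 CPM in DS. They rose by 2.60 ± 0.12 (adjusted p = 9.06e-50) and 1.35 ± 0.14 (adjusted p = 9.34e-16). With GASA4, whose call was lost under 6 of 12 alternatives, this made 3 of the 4 higher at L57 than in DS (17.0% of all ACRs), while EXPA8 (AT2G40610) was lower (-0.51 ± 0.12, adjusted p = 0.000513), a call lost without the first DS library (-0.37, adjusted p = 0.0626) or the second L57 library (-0.41, adjusted p = 0.059).

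Marker genes of seed tissues and of the green seedling also differed between the stages, in directions that depended on the list. In summed CPM, seed storage genes were lower after DS, whereas photosynthesis and seed coat genes were higher, though not at each gene. Whether the seed coat list follows the amount of coat tissue was not tested. At the promoter ACRs of 6 of 10 seed storage genes with one, summed CPM was 806 to 852 in DS, 345 to 381 at L6, 307 to 311 at L26 and 341 to 354 at L57, and 5 of the 6 (SESA5, CRA1, OLEO1, OLEO2 and SESA3) were lower at L6 than in DS (14.3% of all ACRs). The SESA3 call was lost after GC correction of the offsets (adjusted p = 0.0924) and with DESeq2 (adjusted p = 0.0585). At those of 9 of 10 photosynthesis genes it was 318 to 335 in DS, 436 to 459 at L6, 507 to 514 at L26 and 610 to 665 at L57, and 7 of the 9 were higher at L57 than in DS (17.0% of all ACRs), with the smallest p at LHCA2, LHCB5, LHB1B1 and RBCS1A. Of the 7, RBCS1A was lost with DESeq2 (adjusted p = 0.0738), and RBCS2B without the second DS library (adjusted p = 0.0589) or the second L57 library (adjusted p = 0.0534). At 4 of 8 seed coat genes it was 74.4 to 82.8 in DS, 94.0 to 99.5 at L6, 151 to 156 at L26 and 106 to 129 at L57, and none of 7 endosperm genes had a promoter ACR. Of the 4 seed coat genes TTG2 (0.54) and GL2 (0.85) were called as higher at L6 than in DS (17.6% of all ACRs). Both calls were lost after GC correction of the offsets (adjusted p = 0.0527 and 0.174), without the first DS library and without 1 of the L6 libraries. That of GL2 was also lost with DESeq2 (adjusted p = 0.054). TT8 (-0.25) and MUM4 (-0.56) were lower there without a call. TT8, GL2 and MUM4 were called as higher at L26 than at L6 (8.71% of all ACRs). The TT8 call was lost without the second L26 library (adjusted p = 0.143), that of GL2 without the second L6 library (adjusted p = 0.125), and that of MUM4 with DESeq2 (adjusted p = 0.0854) and without any 1 of the 4 libraries (adjusted p = 0.0553 to 0.265). The part of the tissue makeup in the changes at GASA genes was not tested.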

How the data were processed

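ATAC-seq was measured in 8 libraries, 2 at each of 4 stages. By the methods and the submitters' processing notes, reads were trimmed with fastp 0.23.4 and mapped to TAIR10 with Bowtie2 2.4.4. SAMtools and Genrich 0.6.1 served to filter and deduplicate them. Peaks were called with MACS3 3.0.0b3, kept where both replicates had them and merged into ACRs with bedtools 2.30.0, and summits came from the reads of all libraries together. The deposited count table gives the reads in each ACR and library as counts. The deposited CPM table was made by the authors from these counts with csaw offsets that vary with the abundance of an ACR. All per-sample columns were used (0 left out).

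Loess offsets were remade with limma 3.58.1 (span 0.3), and differed from those behind the CPM table by at most 1.37e-12, leaving aside 2 ACRs that have a library at 0. Stages were compared in R 4.3.3 with edgeR 4.0.16 (quasi-likelihood, F test), using a single model over all 8 libraries, no block, and Benjamini-Hochberg adjustment over 30223 ACRs at 0.05. The common dispersion was 0.00947, with 4 residual degrees of freedom and 190.8 prior ones at the median. SE is the absolute log2 fold change divided by the square root of F. Motifs and genes were read from the RefSeq TAIR10.1 sequence and annotation, whose nuclear chromosome lengths fit the ACRs except for 1 ACR each on chromosomes 4 and 5 that runs past the end.

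All 10 genes are named. The lead ACR has the highest mean CPM among promoter ACRs or, without one, among all ACRs of the gene. Other ACRs are given in full where the test over 4 stages passed and stage means differed at least 2-fold, and mostly by range otherwise. From 9 lists of genes up to 4 called genes per list and comparison could be named. The 4 ACRs most like a lead were named for the leads with the largest fall and rise at L57 against DS. Members and lists were chosen with earlier results of these data known. Alternatives were TMM factors, total counts, offsets corrected for GC content by loess, a filter of at least 10 counts in 2 libraries, the earlier form of the edgeR test, 2 stages alone, a replicate block, DESeq2 1.42.0 and leaving out each library. DESeq2 was run on the counts with its own size factors instead of the loess offsets, so it changed scaling and test together. Reads, peaks of single libraries and protein sequences were not used here.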

Additional observations from a re-analysis of the deposited data

How the results depend on the processing

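Over the lead ACRs, 304 of 336 values kept their direction and their side of the threshold under the alternatives, 12 fell below it, 5 passed it and 15 changed sign, none of the last at a called value. The single GASA ACR higher at L57 than at L26 was lost with DESeq2 (0), and the count ranged from 0 to 1 when each library was left out. The number of GASA ACRs was 14 with a window from 1000 bp upstream to the gene end. The count filter removed 0 of 30223 ACRs, so its values repeat the main ones and are among the 304 by construction. The values of GASA2 and GASA3 against DS are among the 336 as a description. Replicate numbers did not pair the libraries (correlations of the deviations between stages of -0.0405 to 0.0231), and the replicate block changed no call of a lead ACR and no count of GASA ACRs, 10 over the 4 stages among them.

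Sign changes at values that were not called were, for GASA5 at L6 against DS, 0.06 with TMM factors, 0.08 with DESeq2 and -0.09 to 0.07 without 1 library. For GASA6 at L57 against L26 they were -0.23 with TMM factors, -0.15 with total counts, -0.21 with DESeq2 and -0.17 to 0.20 without 1 library. Leaving out 1 library alone changed the sign of GASA1 at L26 against L6 (-0.03 to 0.30) and L57 against DS (-0.65 to 0.11), of GASA4 at L6 against DS (-0.06 to 0.55) and L57 against L26 (-0.46 to 0.07), of GASA5 at L57 against L26 (-0.15 to 0.43) and of GASA14 at L26 against L6 (-0.01 to 0.20). Of the pathway genes, the called rise of MYB33 at L6 against DS (0.52, adjusted p = 0.045) became -0.10 with GC-corrected offsets. The alternatives on single ACRs other than leads were added after seeing the data. The cause of these changes was not tested.

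Of all ACRs, DESeq2 called fewer than edgeR: 3189 higher and 1297 lower at L6 against DS (edgeR 5324 and 4333), 1082 higher at L26 against L6 (edgeR 2633), 814 and 1177 at L57 against L26 (edgeR 2276 and 1871), 3390 higher at L57 against DS (edgeR 5129) and 10882 over the 4 stages (edgeR 17111). Since DESeq2 used its own size factors, the parts of scaling and of the test in these differences cannot be told apart. GC-corrected offsets called 3545 higher at L6 against DS. The share of calls that were higher was 55.1% with edgeR, 71.1% with DESeq2 and 44.7% with total counts at L6 against DS, 52.4%, 38.6% and 62.6% at L26 against L6, and 54.9% and 40.9% with edgeR and DESeq2 at L57 against L26. The lowest counts were at L57, where changes were measured with the least precision.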
